A study of Mus musculus with 6 samples.

Results

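The angiopoietins, the receptors they bind and the angiopoietin-like proteins were read from 10 probes for 9 genes: Angpt1, Angpt2, Angpt4, Tek, Tie1, Ptprb, Angptl2, Angptl4 and Angptl6. A probe was taken when the annotation of its spot on the array named one of these genes, and each of the 10 probes has 1 spot, out of 55681 probes on 59305 spots that are not controls. Ptprb has 2 probes and the other genes 1 each. The samples were 3 1G11-mock and 3 1G11-SOD3 cultures, labeled as biological replicates, and each was hybridized to its own single-color mouse array of 384 rows and 164 columns of spots. 1G11 is a mouse microvascular endothelial cell line, labeled as of strain C57BL/6NCrLBR. 1G11-mock is the control line and 1G11-SOD3 overexpresses the extracellular superoxide dismutase SOD3. Each group is 3 cultures of 1 line, so a difference may belong to these lines and not to SOD3 as such. Both lines had received conditioned medium of the mammary cancer line N202.1A for 6 h, and no culture without it was among the samples.

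Angiopoietins are secreted ligands of Tie2, the receptor tyrosine kinase encoded by Tek, which is made mainly by endothelial cells. Angpt1, made mostly by perivascular cells, activates Tie2 and quiets vessels, whereas Angpt2, which endothelial cells store and release, often opposes it and loosens vessels for sprouting or leakage. Tie1 binds no angiopoietin tightly but modulates Tie2, and Ptprb (VE-PTP) is an endothelial phosphatase that removes phosphate from Tie2 and VE-cadherin. The angiopoietin-like proteins share the domains of angiopoietins but do not act through Tie receptors. Angptl4 is known as an inhibitor of lipoprotein lipase that is induced by hypoxia and by fatty acids through PPARs.

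The identity of each value rests on the 60-base probe that captured the RNA, so the sequences behind the results are given first, 5′ to 3′, as the array files hold them. Tek and Tie1 are relatives, and their probes can be aligned. Laid over each other with a shift of 3 bases, 39 of 57 bases were identical (68.4%), and capitals mark the identical bases.
Tek: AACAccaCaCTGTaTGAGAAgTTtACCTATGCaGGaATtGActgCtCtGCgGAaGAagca
Tie1: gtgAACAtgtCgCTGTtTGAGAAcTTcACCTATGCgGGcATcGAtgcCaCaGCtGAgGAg
The differing bases are spread along the length of the probes. The Angptl6 probe is shown whole, and of the Angpt2, Angptl4 and Ptprb probes the first 30 bases are shown, because these are the probes with a signal above background.
Angptl6: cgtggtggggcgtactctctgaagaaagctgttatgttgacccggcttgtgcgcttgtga
Angpt2: acctatcttgatggcttagtttttaatggc
Angptl4: atggtgctgttgtaggtgctgtggatgcac
Ptprb, probe A_51_P215475: caatctactcgagacattaagaattcacct
Ptprb, probe A_55_P2313033: gcttctcttagctccgtgttaaggctctaa
The Ptprb probes start 3268 bases apart in the transcript, at positions 6229 and 9497, and do not overlap. In the annotation of the array they lie on the plus strand at chr10:115820912-115820971 and chr10:115824180-115824239. The Angpt2 probe lies at chr8:18691458-18691517, the Angptl4 probe at chr17:33911880-33911939 and the Angptl6 probe at chr9:20678326-20678385, all on the minus strand. The Tek probe is at chr4:94540624-94540683 on the plus strand and the Tie1 probe at chr4:118144132-118144191 on the minus strand. The files do not name the build of these positions. It is not that of the gene table used here, GRCm38.p6, in which only 1 of the 10 positions falls inside its gene, so exons and untranslated regions were not assigned.

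Of the 10 probes, the 2 of Angpt2 and Angptl4 were well above background on all 6 arrays according to the scanner software. The probes of Angpt1, Angpt4, Tek, Tie1 and Angptl2 were well above background on no array. The other 3 were above it on some arrays: the Ptprb probe A_51_P215475 on 3 1G11-SOD3 arrays and no 1G11-mock array, the Ptprb probe A_55_P2313033 on 2 1G11-SOD3 arrays and no 1G11-mock array, and the Angptl6 probe on 3 1G11-SOD3 arrays and 1 1G11-mock array. Of all probes, 29.4% were well above background on all arrays and 54.3% on none. No spot was saturated. An array detects RNA of the whole culture, in which fewer cells that express a gene and less RNA per cell cannot be told apart.

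**Figure D1:**
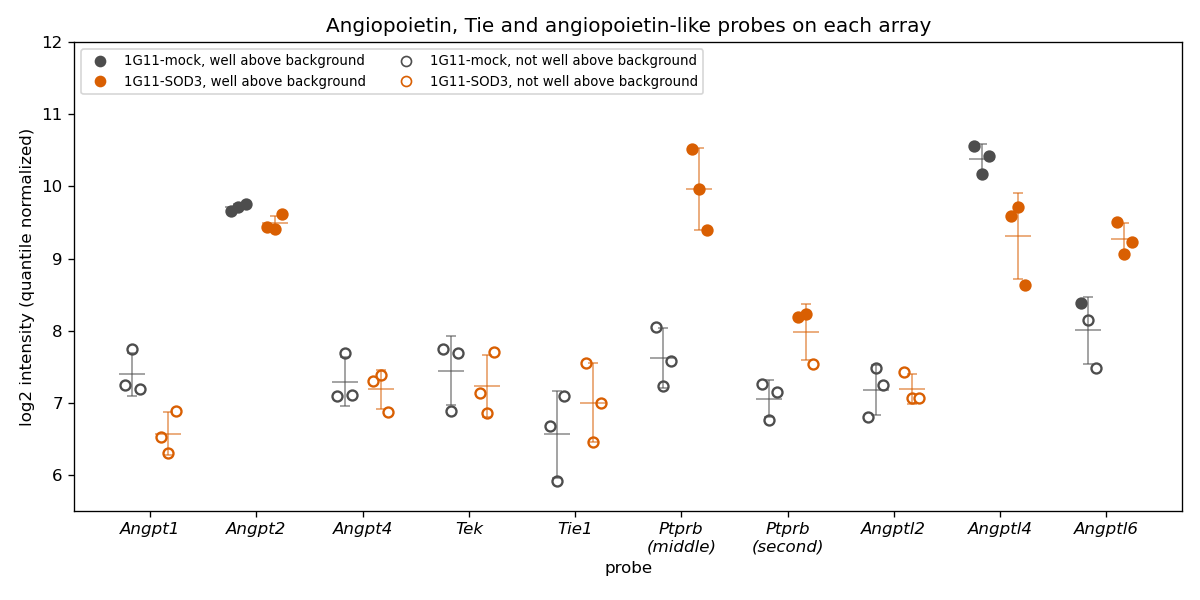
Quantile-normalized log2 intensity (vertical axis) of the 10 probes (horizontal axis) on each of the 3 1G11-mock arrays (grey) and 3 1G11-SOD3 arrays (orange), with the mean and SD as bars; filled points were well above background and open points were not. Angpt2 and Angptl4 are filled throughout, 5 probes are open throughout, and levels of different probes are not comparable.

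Where a spot lay on the array also entered into the values. A central block of 128 of the 384 rows and 55 of the 164 columns, called the middle here, is therefore reported apart. Of probes wholly in the middle, 11.6% were called higher in 1G11-SOD3 cells, against 0.644% of probes with no spot there. Each line occupied its own row of arrays on the slide, so that slide row and cell line cannot be told apart. Of the 10 probes, only the Ptprb probe A_51_P215475, at row 159 and column 66, lies in the middle. The Angptl6 spot, at row 259 and column 77, lies 3 rows past its edge. The other spots lie at least 20 rows or columns away from it.
To take the place off, the median deviation of the 200 nearest spots was subtracted from each spot on each array before normalization. The neighbors were either bright spots, which 3 or more arrays read well above background, or spots of the same of 6 classes of brightness. For probes with a mean log2 intensity up to 8 the first choice widened the spread among copies of a probe and the second narrowed it, and for brighter probes both narrowed it, so both are given for each member.

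**Figure D2:**
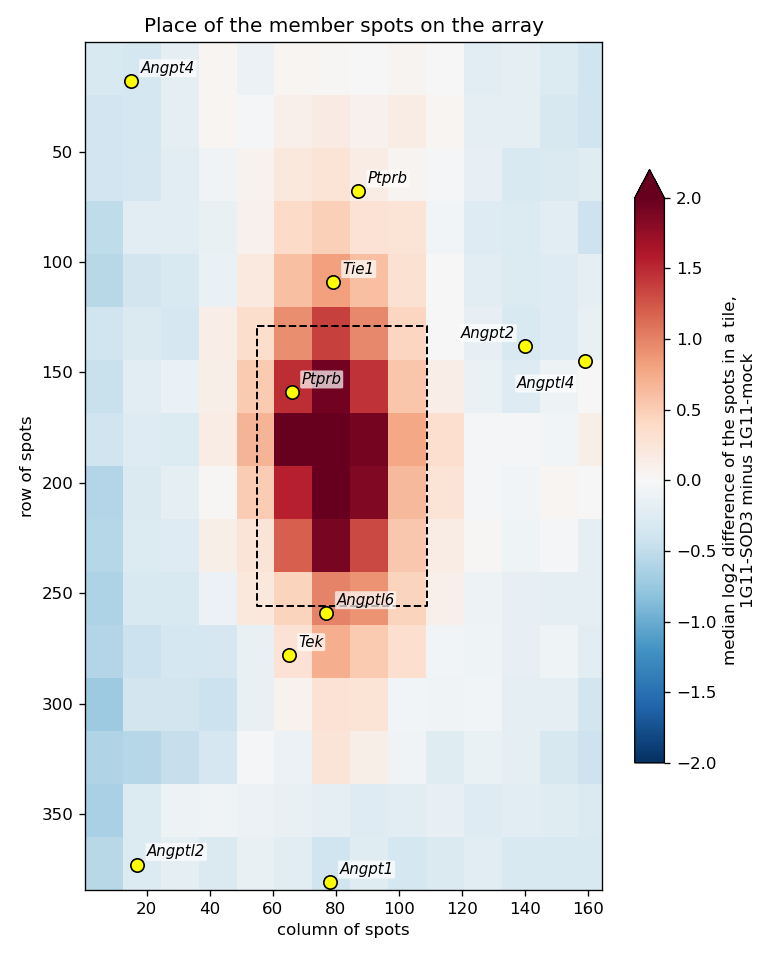
Rows (vertical axis) and columns (horizontal axis) of spots on the array, colored by the median log2 difference, 1G11-SOD3 minus 1G11-mock, of the bright spots in each tile; yellow points are the spots of the 10 probes and the dashed box is the middle, where values above 2 share the darkest color. The Ptprb spot of probe A_51_P215475 lies inside the box, the Angptl6 spot lies at its lower edge, and Angpt2 and Angptl4 lie far to its right.

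Of the 10 probes, 2 passed the threshold (over 2-fold, with the adjusted p below 0.05), both higher in 1G11-SOD3 cells: the Ptprb probe in the middle and the Angptl6 probe at its edge. Over all 55681 probes, 2.93% were called, 1.87% as higher and 1.06% as lower. Outside the middle, 1 of the members' 9 probes was called higher, beside 0.644% of all probes there, and none lower, beside 1.18%. No member probe was called after the place on the array was taken off, whether by the nearest bright spots, when 1.1% of all probes were called higher and 2.7% lower, or by the nearest spots of like brightness, when 0.812% and 0.821% were.

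Angpt2, the one angiopoietin above background, had background-corrected and quantile-normalized log2 intensities of 9.66, 9.71 and 9.76 on the 1G11-mock arrays and 9.44, 9.42 and 9.61 on the 1G11-SOD3 arrays. All 1G11-SOD3 values were below all 1G11-mock values, but by little. Among all probes the lines did not overlap in 20.6%, 10.3% in each direction. The difference, 1G11-SOD3 minus 1G11-mock, was -0.22 on the log2 scale (SE 0.21, 95% confidence interval -0.69 to 0.24, limma adjusted p = 0.691). It did not pass the test, and its sign was not stable. It turned to 0.15 (adjusted p = 0.752) with the nearest bright spots taken off, and to 0.04 (adjusted p = 0.96) with the nearest spots of like brightness.
The interval leaves out a 2-fold change of Angpt2 in either direction in each of these 3 fits. On the scanner's own scale, the mean spot intensity of Angpt2 was 8.01 to 13.8 times that of the local background.

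Angpt1, the activating ligand, was not well above background on any array, with log2 intensities of 7.25, 7.74 and 7.19 in 1G11-mock and 6.52, 6.30 and 6.89 in 1G11-SOD3 cultures. These values do not overlap, yet no fold is given, as no array gave a signal. Angpt4, a ligand of the same receptor, read 7.09, 7.68 and 7.10 in 1G11-mock and 7.30, 7.38 and 6.87 in 1G11-SOD3 cultures, with overlap. Neither line therefore gave an array signal for Angpt1 or Angpt4 that the scanner software separated from background.

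The receptors were likewise at background. Tek read 7.74, 6.89 and 7.69 on the 1G11-mock arrays and 7.14, 6.86 and 7.70 on the 1G11-SOD3 arrays, and the lines overlapped over most of their range. Tie1 read 6.68, 5.90 and 7.09 against 7.55, 6.45 and 7.00, again with overlap. Over the 30 readings of Angpt1, Angpt4, Tek, Tie1 and Angptl2, the mean spot intensity was 199 to 410 scanner units, or 2.54 to 4.89 times the local background. Each of these genes has 1 probe here, so an undetected probe sets no limit on other parts of the transcript, and a level that differed between the lines below the detection limit was not measurable.

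Ptprb, the phosphatase that acts on Tie2, was well above background only on 1G11-SOD3 arrays. The position adjustments were not applied to these flags of the scanner software. Its probe in the middle, A_51_P215475, had log2 intensities of 8.04, 7.23 and 7.58 on the 1G11-mock arrays, none well above background. On the 1G11-SOD3 arrays it read 10.53, 9.97 and 9.39, all well above background, so that the lines were apart. The measured means of 7.62 and 9.96 gave a difference of 2.34 (SE 0.318, 95% confidence interval 1.65 to 3.04, limma adjusted p = 0.0028). The measured means were 5.08-fold apart before the place on the array was considered. Each 1G11-mock value was already above the lowest detected value of its array (7.02, 6.93 and 7.39). A bound that raises lower values to that level therefore equals the measured fold. It is not a guaranteed minimum, because these readings were above that level and still not well above background. The bound also leaves out the spread that the interval gives.
The spots around it moved the same way. The 200 nearest spots of like brightness had a median difference of 1.08 with quartiles of 0.61 and 1.88, and 177 of the 200 lay below that of Ptprb. With these taken off, the values became 8.14, 7.94 and 8.98 in 1G11-mock and 9.86, 9.65 and 8.82 in 1G11-SOD3 cultures. The third 1G11-SOD3 value then fell below the third 1G11-mock value, so that the lines overlapped. The difference was 1.09 (SE 0.32, 95% confidence interval 0.38 to 1.80, adjusted p = 0.131), and with the nearest bright spots it was 1.05 (adjusted p = 0.165). In neither fit was the probe called.

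The other Ptprb probe, A_55_P2313033 at row 68 and column 87, lies 61 rows outside the middle and read lower. It had log2 intensities of 7.25, 6.76 and 7.15 on the 1G11-mock arrays and 8.19, 8.22 and 7.54 on the 1G11-SOD3 arrays. All 1G11-SOD3 values were above all 1G11-mock values, although the third of them was itself not well above background. The difference of 0.93 (SE 0.261, 95% confidence interval 0.35 to 1.50) was not called, with a limma adjusted p of 0.0955. For a bound, each 1G11-mock array was set to the higher of the probe's own value and the lowest detected value. The third 1G11-SOD3 array was kept at its measured value. The 1G11-SOD3 mean was then 1.73-fold higher before the place on the array was considered, with the spread among arrays left out.
With the spots of like brightness taken off, the difference was 0.64 (95% confidence interval 0.17 to 1.11, adjusted p = 0.184), and with the nearest bright spots it was 0.80 (adjusted p = 0.174). Of the 200 nearest spots of like brightness, 196 had a smaller difference than this probe. Both Ptprb probes thus had positive differences in every fit that gave them a value, but the probe outside the middle was called in none and the probe in the middle was not called after either position adjustment.

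Angptl4, the lipoprotein lipase inhibitor, had a probe above background on every array and read lower in each 1G11-SOD3 culture without passing the test. Its log2 intensities were 10.57, 10.17 and 10.42 on the 1G11-mock arrays and 9.59, 9.71 and 8.63 on the 1G11-SOD3 arrays. The lowest 1G11-mock value was above the highest 1G11-SOD3 value, and the third 1G11-SOD3 array read lowest. The means of 10.39 ± 0.20 and 9.31 ± 0.59 (SD, n = 3 each) differed by -1.08 (SE 0.299, 95% confidence interval -1.73 to -0.42), a 2.11-fold lower level with a limma adjusted p of 0.0898.
The place on the array moved this value little. Around the Angptl4 spot, at row 145 and column 159 near the right edge, the 200 nearest spots of like brightness had a median difference of -0.20, and only 7 of them had a lower value than Angptl4. The difference was -0.91 (adjusted p = 0.111) with these taken off and -0.92 (adjusted p = 0.0824) with the nearest bright spots. Without 1G11-SOD3 replicate 3 it was -0.73 (adjusted p = 0.215).

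Angptl6, a circulating member of the family also known as angiopoietin-related growth factor, had log2 intensities of 8.38, 8.15 and 7.48 on the 1G11-mock arrays and 9.50, 9.06 and 9.23 on the 1G11-SOD3 arrays. All 1G11-SOD3 values were higher, and of the 1G11-mock values only the first was well above background. The difference of 1.26 (SE 0.273, 95% confidence interval 0.66 to 1.86, limma adjusted p = 0.0309) was called, and no fold is drawn from it because 2 of the 3 1G11-mock values were not well above background. It was called without 1G11-mock replicate 1 (1.46, adjusted p = 0.0238) but in no fit that left out another array, where it was 1.37 and 1.03 without 1G11-mock replicates 2 and 3, and 1.13, 1.35 and 1.22 without 1G11-SOD3 replicates 1, 2 and 3.
The neighbors of this spot moved with it. Their median difference was 0.86, with quartiles of 0.36 and 1.31, and 145 of the 200 lay below that of Angptl6. With these taken off, the values were 8.48, 8.66 and 8.55 in 1G11-mock and 8.94, 8.93 and 8.71 in 1G11-SOD3 cultures, still apart but close. The difference was 0.30 (95% confidence interval -0.05 to 0.64, adjusted p = 0.462), and with the nearest bright spots 0.54 (adjusted p = 0.188). The call was thus lost with either adjustment.

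Angptl2, an angiopoietin-like protein linked to inflammation, was not well above background on any array. It read 6.80, 7.48 and 7.24 on the 1G11-mock arrays and 7.42, 7.06 and 7.06 on the 1G11-SOD3 arrays. The lines overlapped.

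**Figure D3:**
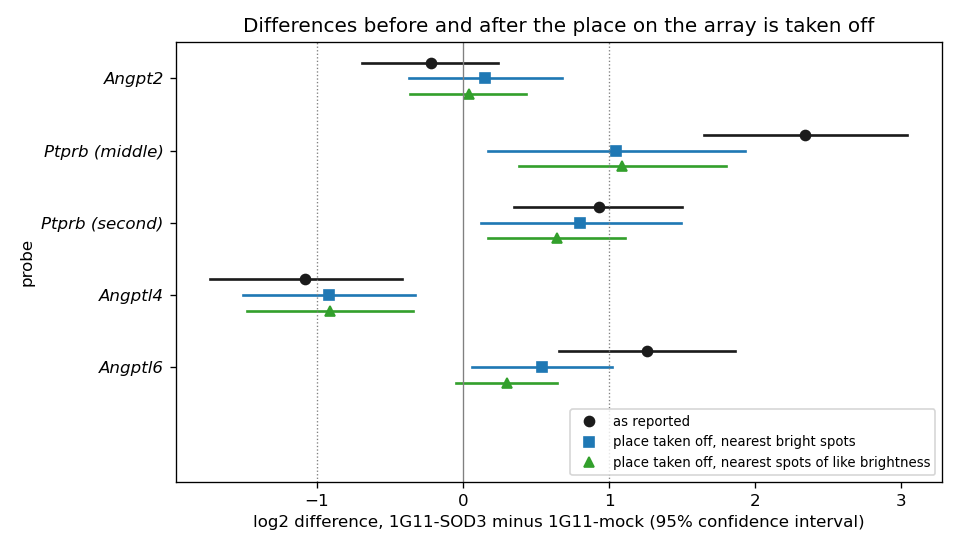
Log2 difference, 1G11-SOD3 minus 1G11-mock, with its 95% confidence interval (horizontal axis), for the 5 probes with a signal on at least 1 array (vertical axis); black points are the values as reported, blue squares and green triangles those after the place on the array was taken off by the nearest bright spots or by the nearest spots of like brightness, and dotted lines mark 2-fold. The difference of the Ptprb probe in the middle goes from 2.34 to 1.05 and 1.09, that of Angptl6 from 1.26 to 0.54 and 0.30, and that of Angptl4 stays between -1.08 and -0.91.

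Among probes outside the middle that were well above background on all 6 arrays (11250 probes), those of Lsp1, Dync1li2 and Nmb had a pattern over the 6 arrays most like the Ptprb probe in the middle, each with a Pearson r of 0.994. The Nmb spot, at row 201 and column 114, lies just outside the right edge of the middle. The Dync1li2 spot is at row 101 and column 72, and the Lsp1 spot at row 146 and column 18. Most like Angptl6 were Gpx8 (r = 0.999), Atxn2l (r = 0.997) and Tysnd1 (r = 0.995). The Atxn2l spot, at row 259 and column 90, and the Tysnd1 spot, at row 263 and column 90, lie close to that of Angptl6, and the Gpx8 spot, at row 125 and column 50, lies just outside a corner of the middle. These correlations describe 6 arrays that share the same 2 lines, and spots that in part share their place on the array.

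The genes around these members were read from 6 lists with 83 genes in all, each gene by its probe with the highest mean. Of the 83, 65 had a probe reading above background on some array, 4 were called higher and 3 lower, 4.82% and 3.61%. Among all 22220 named genes the shares were 2.94% and 1.72%. Of the 4 genes called higher, 3 have their spot in the middle. After either position adjustment, 1 gene was called higher and 3 lower, beside 1.82% and 2.66% of all genes with the nearest bright spots and 1.46% and 1.24% with the spots of like brightness.

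None of the genes listed for Tie receptor signaling, which act downstream of Tie2 or on its ligands and receptors, was called. Of 27 genes, 20 had a signal on all 6 arrays and 24 on some array. Grb7, Src and Adam17 had none. Of the 27, 13 had a positive and 14 a negative difference, and the median was -0.03, as it was over all genes. The differences ran from -0.86 (Nck1, an adaptor that Tie2 recruits through Dok2) to 0.81 (Mapk3, the kinase ERK1), with a lowest adjusted p of 0.0862. Akt1, the kinase through which Tie2 supports endothelial survival, differed by -0.05 (SE 0.215, adjusted p = 0.944).
Foxo1, the transcription factor that Akt holds in check and that drives Angpt2, read 11.77, 11.87 and 12.14 against 11.61, 12.10 and 11.86. Its difference was -0.07 (adjusted p = 0.929), with overlapping lines. Mapk3 was -0.14 after the nearest bright spots were taken off, and its other probe differed by -0.56 (adjusted p = 0.41).

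Of 14 FOXO1 targets, a list chosen because Angpt2 is one of them, 1 was called higher and 1 lower, with a median of 0.11. Bcl6, a transcriptional repressor, fell from 12.73, 12.54 and 12.71 in 1G11-mock to 11.65, 11.73 and 11.29 in 1G11-SOD3 cultures. The lines were apart by more than their spread, with a difference of -1.10 (SE 0.225, adjusted p = 0.0238) that was -1.05 and -1.03 after the position adjustments and was still called, although it was called in no fit that left out an array. Sod2, the mitochondrial superoxide dismutase, rose by 4.24 (adjusted p = 0.00615), but its spot is in the middle and after the position adjustments the difference was 1.62 (adjusted p = 0.0545) and 1.43 (adjusted p = 0.324). Txnip, an inhibitor of thioredoxin, had probes of opposite sign, with 2.68 (adjusted p = 0.0544) from a spot in the middle and -1.11 (adjusted p = 0.0236) from one outside it. The probe outside the middle was called lower. The probe in the middle was at 0.59 after either position adjustment (adjusted p = 0.448 with the nearest bright spots and 0.599 with those of like brightness). Klf4 and Cited2, transcriptional regulators and the brightest of the list, differed by 0.23 (adjusted p = 0.902) and 0.12 (adjusted p = 0.899). The Klf4 spot is in the middle, and its difference turned to -0.94 (adjusted p = 0.187) and -1.18 (adjusted p = 0.0719) after the position adjustments.

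The list of other angiopoietin-like genes gave no call. Angptl8, which takes part in the inhibition of lipoprotein lipase, was above background on all arrays, with 9.07, 9.09 and 9.68 against 8.68, 8.79 and 8.80. The lines did not overlap, but the difference of -0.52 (SE 0.24, adjusted p = 0.351) did not pass the test and was -0.04 after the nearest bright spots were taken off. Angptl1 read above background on 1 array (difference 0.08, adjusted p = 0.954), and Angptl7 on none.

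In the lipoprotein lipase axis, 1 of 15 genes was called and the median was 0.08. The lipases Lpl, Lipg and Lipc were well above background on no array. Gpihbp1, which carries lipoprotein lipase across endothelial cells, was above background on all of them and differed by -0.30 (adjusted p = 0.61). Pcsk6, a proprotein convertase that can cleave lipases and angiopoietin-like proteins, read 7.85, 7.49 and 7.32 in 1G11-mock cultures, none well above background, and 9.09, 9.13 and 8.51 in 1G11-SOD3 cultures.
Before the place on the array was considered, the measured difference of Pcsk6 was 1.36 (SE 0.257, adjusted p = 0.0162). With each 1G11-mock array set to at least the lowest detected value, it was 1.33, or 2.52-fold higher in 1G11-SOD3 cells. This bound is close to the measured difference, is not a guaranteed minimum and leaves out the spread among arrays. The Pcsk6 spot is outside the middle, and Pcsk6 was called after both position adjustments (1.43 and 1.24). It was not called without 1G11-mock replicate 2 or 1G11-SOD3 replicate 1 or 2. Lmf1, which folds lipases, and Furin, another convertase, were the brightest of the list and differed by -0.40 (adjusted p = 0.442) and -0.44 (adjusted p = 0.596).

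Angptl4 is a known target of PPARs, and of 11 PPAR genes 2 were called lower and 1 higher, with a median of -0.19. Plin2, the coat protein of lipid droplets, fell from 14.26, 14.67 and 14.59 to 12.37, 13.48 and 13.32. All 1G11-SOD3 values were below all 1G11-mock values, the first of them most, and the difference was -1.45 (SE 0.302, adjusted p = 0.0255). It was called at -1.21 after either position adjustment, but not without 1G11-mock replicate 2 or 3 or 1G11-SOD3 replicate 1 or 3.
Acadl, an enzyme of fatty acid oxidation, fell by 1.01 on the log2 scale (adjusted p = 0.0454), which after the position adjustments was -0.72 (adjusted p = 0.0839) and -0.66 (adjusted p = 0.0672), and it was called in only 1 of the 6 fits with an array left out. Cpt1a, which admits fatty acids to mitochondria, differed by -0.93 (adjusted p = 0.0354), under the 2-fold threshold, and its other, dimmer probe was called lower (-1.08, adjusted p = 0.0261). Pdk4, a kinase that shuts pyruvate out of oxidation, was called higher (1.11, adjusted p = 0.0185) with its spot in the middle, and was not called after the adjustments (0.73 and 0.63). Acaa2, an enzyme of fatty acid oxidation and the brightest of the list, differed by 0.11 (adjusted p = 0.877).

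Angptl4 is also a hypoxia gene, and all 12 hypoxia genes had a signal on some array. One was called, Ankrd37, whose spot is in the middle (2.38, adjusted p = 0.0032) and which differed by 0.24 (adjusted p = 0.723) after the nearest bright spots were taken off. Ldha and Pgk1, glycolytic enzymes and the brightest of the list, differed by 0.18 (adjusted p = 0.836) and -0.04 (adjusted p = 0.972). The median was -0.22, with 8 of the 12 differences negative, but after the position adjustments it was 0.03 and 0.01, with 6 of the 12 negative in each.
Vegfa, the main endothelial growth factor, read 12.06, 12.58 and 12.34 in 1G11-mock and 10.01, 11.44 and 11.58 in 1G11-SOD3 cultures, the first 1G11-SOD3 culture being the lowest. The difference of -1.32 (SE 0.374) was not called, with an adjusted p of 0.0989, but with the replicate number as a block it was called (adjusted p = 0.0211), as it was after the position adjustments (-1.21, adjusted p = 0.0288, and -1.23, adjusted p = 0.0319). The other Vegfa probe differed by -0.97 (adjusted p = 0.0414), just under the 2-fold threshold. The brightest probe of Egln3, a hydroxylase that marks HIF for decay, differed by -0.38 (adjusted p = 0.493), whereas its other probe was called lower (-1.29, adjusted p = 0.0254).

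**Figure D4:**
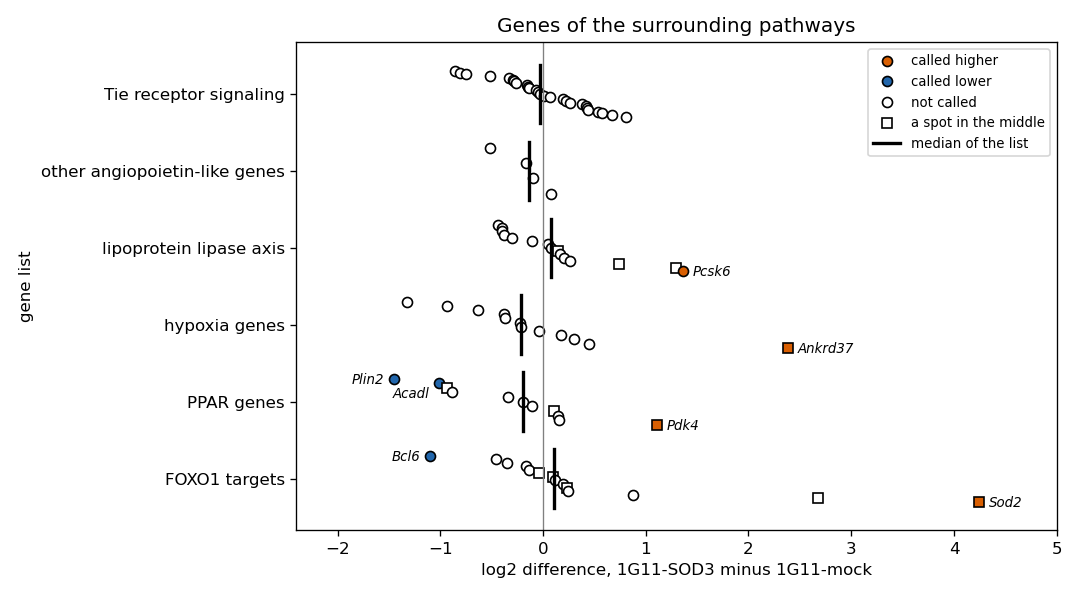
Log2 difference, 1G11-SOD3 minus 1G11-mock (horizontal axis), of each gene of the 6 lists (vertical axis), with the list median as a bar; filled points were called higher (orange) or lower (blue), and squares have a spot in the middle. The list of Tie receptor signaling is spread around -0.03 with no call, and the 3 squares called higher are Ankrd37, Pdk4 and Sod2.

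As a check of the labels, Sod3 was higher on every 1G11-SOD3 array (lowest 16.26) than on any 1G11-mock array (highest 13.61), a difference of 4.27 (adjusted p = 0.00786) from a spot in the middle and of 2.77 after the nearest bright spots were taken off. Of 12 endothelial markers, 9 had a signal on some array, and the list mean per array ran from 8.94 to 9.07 (1G11-mock) and from 8.93 to 9.32 (1G11-SOD3). Kdr and Eng were bright, whereas Cdh5, the gene of VE-cadherin, Emcn and Erg were well above background on no array, as were Tek and Tie1. Cdh5 and Emcn have 1 probe each, so this sets no limit on other parts of their transcripts. The study's methods report that 1G11 cells were regularly checked by staining for VE-cadherin protein. Vwf, which endothelial cells store together with Angpt2, fell by 1.65 on the log2 scale (adjusted p = 0.00342) and was called after both position adjustments, and Egfl7 was called higher (1.82, adjusted p = 0.0175) but not after them.
Some markers of other cells differed between the lines. Of 8 pericyte and smooth muscle markers, 3 were called higher, before and after both adjustments: Acta2 (3.01), Tagln (1.45) and Pdgfrb (2.39). Among all named genes, 2.94% were called higher, and after the adjustments 1.82% (nearest bright spots) and 1.46% (like brightness). The list mean per array ran from 8.14 to 8.41 (1G11-mock) and from 9.02 to 9.35 (1G11-SOD3), with Rgs5, Des and Myh11 above background on no array. Of 6 epithelial markers, only Krt14, whose spot is in the middle, was called higher (4.82). It was still called with the nearest bright spots taken off (2.32, adjusted p = 0.00164) and with those of like brightness (2.70, adjusted p = 0.000218). Epcam, Krt18 and Cldn4 were above background on no array. The list mean was 7.57 to 7.67 against 8.21 to 8.52, and without Krt14 it was 7.33 to 7.60 against 7.34 to 7.52. Of 5 leukocyte markers none was called, with Cd3e and Itgam bright, Ptprc and Cd68 among those above background on no array and a list mean of 9.14 to 9.56 against 9.26 to 9.37. Cd3e has 1 probe, and Itgam was read from the brightest of its 3. The source of these 2 signals was not tested. The part of the markers of other cells in the differences of Ptprb, Angptl6 and Angptl4 was not tested.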

How the data were processed

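Gene expression was measured on 6 single-color Agilent SurePrint Mouse G3 arrays. For each array the authors deposited the scanner output of Feature Extraction 10.7.3.1, with the mean intensity of each spot and of its background, not normalized between arrays. They also deposited a table of log2 values, background corrected with normexp (offset of 50) and quantile normalized, which was used as an alternative. The submitters' processing notes name limma.

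Mean intensities, which the files give rounded, were corrected by normexp with the local background median (offset of 50), taken to log2 and quantile normalized without control spots in limma 3.58.1 (R 4.3.3). Outlier spots were dropped and those of a probe averaged. Lines were compared by limma with Benjamini-Hochberg adjustment over 55681 probes, and a call needed over 2-fold and an adjusted p below 0.05. Between 34.2% and 43.8% of spots per array were well above background, and 3 arrays per line limit the precision. A probe well above background in only 1 line has a bound, and a probe detected in neither has no fold. The bound was computed against the higher of its own value and the lowest value of a detected probe on each array. That lowest value is not a detection limit, as some readings above it were not well above background. The bound is therefore no guaranteed minimum. It compares means and leaves out the spread among arrays.

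For the position adjustment, the median deviation of the 200 nearest bright spots was taken off each spot before quantile normalization. As this widened the spread among the copies of dim probes (median SD of 0.463 against 0.246 for 178 probes with a mean up to 8), the 200 nearest spots of 1 of 6 brightness classes were used as well, a choice made after seeing the data. With it the spread was 0.166.

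Gene names came from the RefSeq accessions and descriptions of the array, matched to the genes of GRCm38.p6. The members and the gene lists were chosen with earlier results of these data known, as was the rule for named genes: every member probe, of the lists the called genes and the 2 with the highest mean, and for each called member the 3 genes most correlated with it. Vegfa, Cpt1a, Egln3, Txnip, Foxo1, Nck1, Angptl1, Angptl8, Gpihbp1 and the undetected genes were named after their values were seen. Some genes that the rule or the lists cover are not reported here. Same-numbered arrays of the lines deviated together weakly (r of 0.165, 0.103 and 0.157 over 16362 probes), against -0.168 to 0.055 for arrays of unlike number. A pairing by replicate number was thus only inferred, from weak correlations in these same data. A fit with the replicate number as a block was therefore an alternative and not the main result. The others were an offset of 16, no background correction, the median of pixel intensities, scaling of the processed signal or of the log2 values to the 75th percentile, cyclic loess, control or outlier spots kept, dim probes left out, a variance trend, the middle left out, and each array left out. The procedure was tested on simulated data. Tables and figures used Python 3.11.15, pandas 2.3.3, numpy 2.4.6 and matplotlib 3.10.9.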

Additional observations from a re-analysis of the deposited data

How the results depend on the processing

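The differences of Angptl4 (-1.12 to -0.92 over 14 alternatives set beforehand, adjusted p 0.055 to 0.152) and of the Ptprb probe outside the middle (0.50 to 1.15 over 13) kept their direction and were not called, also with an array left out (-1.26 to -0.73 and 0.79 to 1.08). That Ptprb probe has no value with dim probes left out, and the Ptprb probe in the middle has none with the middle left out. The position adjustment and the one by brightness reversed Angpt2 (0.15 and 0.04) and ended the calls of Ptprb in the middle (1.05 and 1.09) and of Angptl6 (0.54 and 0.30). Angptl6 was also not called with no background correction (0.93), an offset of 16 (1.39), the processed signal (1.30) or 75th percentile scaling (1.05), and ranged from 1.03 to 1.46 with an array left out. Member probes called higher numbered 2, 1 under each of those 4 settings and with the middle left out, 0 after either position adjustment, and 1 to 2 with an array left out. Member probes called lower numbered 0, and 1 with the processed signal (Tie1) and 1 with 75th percentile scaling (Angpt1), both undetected, under settings that move the median of all probes to -0.52 and -0.33. List genes called higher numbered 4, and 2 with no background correction, 1 after either position adjustment or with the middle left out, and 2 to 5 with an array left out. List genes called lower numbered 3, and 1 with an offset of 16, 75th percentile scaling, cyclic loess or the variance trend, 5 with the processed signal, and 0 to 3 with an array left out. The replicate block left every member difference as it was (Angptl4 -1.08, adjusted p = 0.055; Angptl6 1.26, adjusted p = 0.0145), and apart from the list genes Vegfa and Txnip (2.68, adjusted p = 0.00849, spot in the middle) it changed no other call. The processed signal called 9918 of all probes lower, against 589, and 1200 higher, against 1040, and the split after the position adjustment was 613 higher and 1501 lower and by brightness 452 and 457. What limits the 5 undetected genes is signal over background. The causes of these changes were not tested.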
